A study of Mus musculus with 82 samples.

Results

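Skin of C57BL/6j mice taken 2 h (h2) after a whole-body X-ray dose of 3 Gy was compared with skin of sham mice biopsied at the same time point. The comparison holds 9 of the 82 arrays of the series, 5 from 3 Gy mice (M011, M012, M013, M014 and M015) and 4 from sham mice at 0 Gy (M001, M002, M004 and M005), chosen by their labelled dose and time point. Each array came from a different mouse. All mice were male, bought at 8 weeks of age and acclimated for 1 week. Mice were anesthetized with ketamine and xylazine, and the irradiated ones were exposed to 6 MV photons, while sham mice were moved and placed alike but not exposed; a piece of shaved back skin was then removed. The arrays were Agilent 2-colour mouse arrays on which skin RNA (Cy5) was hybridised against a universal mouse reference RNA (Cy3), so every level below is a log2 ratio of skin over reference, and every difference a log2 difference of 3 Gy minus sham, unless another scale is named. Skin of 1 Gy (4 mice) and 6 Gy (4 mice) at h2 served for comparison. In whole skin, fewer cells of a type and less RNA per cell cannot be told apart.

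Ionizing radiation breaks DNA, and the kinases that sense the breaks stabilise p53, a transcription factor that switches on genes for cell cycle arrest (Cdkn1a, Ccng1, Btg2), for its own removal (Mdm2), for cell death (Bax, Bbc3, Pmaip1, Trp53inp1) and for the handling of stress (Sesn1, Sesn2). Skin also changes without any exposure, because hair follicles cycle between growth (anagen) and rest (telogen), and a growing follicle makes large amounts of hair keratins and keratin-associated proteins. The 9 arrays held both the epidermal and the dermal markers of skin. Krt5, a keratin of basal epidermis, lay between 3.86 and 4.66, and Krt10, a keratin of the differentiating layers, between 4.04 and 6.49. Dcn, the matrix protein decorin, lay between 2.94 and 5.50.

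The biopsy of sham mouse M002 stood apart from the other 8. Over the 30294 probes tested, its array correlated with the other 8 at r between 0.675 and 0.772, while pairs among the other 8 correlated at 0.917 to 0.968 on the same scanner and at 0.817 to 0.885 on different scanners. These correlations are across probes, which are not independent replicates. Genes of the growing hair follicle were far higher in the M002 skin. Krt33a, a hair cortex keratin, was 9.18 in M002, 0.13 to 0.49 in the other 3 sham arrays and 0.34 to 1.00 in the 5 arrays of 3 Gy. Padi3, an enzyme that modifies hair proteins, was 6.15 in M002 and -2.34 to -0.91 in the other 8. Msx2, a transcription factor of the hair matrix, was 5.24 in M002 and 0.32 to 1.52 elsewhere. The mean of the 20 tested genes of the growing hair follicle was 5.33 in M002, the highest of all 82 arrays, against 0.22 to 0.71 in the other sham arrays and 0.46 to 0.87 after 3 Gy. Later biopsies of the same mouse had means of 0.32 on day 4, 0.82 on day 7, 1.33 on day 21 and 1.07 on day 28, the last 2 above the range of the other 8 arrays.

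The scanner was also distributed unevenly. The file headers name a pair of scanners (called scanner 1 and scanner 2 here): 3 of the 4 sham arrays were read on scanner 1 and M002 on scanner 2, whereas M011 was the only 3 Gy array on scanner 1 and the other 4 were read on scanner 2. Neat1, a long nuclear RNA, was 2.34 in M001, 2.58 in M004, 2.49 in M005 and 1.66 in M011, all on scanner 1, and 0.70 in M002, 0.05 in M012, 0.77 in M013, -0.52 in M014 and -0.01 in M015, all on scanner 2. The values separated by scanner, with the sham array M002 inside the range of the 3 Gy arrays of scanner 2. All arrays of scanner 1 at h2 were read on 1 scan day and all of scanner 2 on another, so scanner and scan day cannot be told apart here. Klf2, a transcription factor of endothelium and lymphocytes, separated the same way, from -3.02 to -2.19 on scanner 1 and from 0.36 to 1.28 on scanner 2. Values with the scanner as a block, on each scanner or without M002 are therefore given beside the results that rest on few arrays. The authors' deposited normalized values were assigned to arrays by the sample each column names. Over probes, 4 of these 9 columns correlated best with the scanner file of the same sample, so for the other 5 the assignment is not settled by the values, and every result from the deposited values below rests on it. In these values, pairs of the other 8 arrays correlated at 0.928 to 0.978 on the same scanner and at 0.941 to 0.982 on different scanners, ranges that overlap, while M002 again had the lowest correlations (0.894 to 0.919).

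Significantly differentially transcribed genes (SDTGs) were those with a fold change of 2 or more and a Benjamini-Hochberg adjusted p below 0.05. In the values computed from the scanner files, 0 probes were higher and 0 lower in 3 Gy skin by limma (0% of 30294 in each direction), and the smallest adjusted p was 0.0563. At an unadjusted p under 0.05, 3812 probes differed, and 186 higher and 93 lower ones also had a 2-fold difference. With the scanner as a block the counts were again 0 and 0 (0% each), the smallest adjusted p was 0.246 and 1680 probes had an unadjusted p under 0.05. The deposited normalized values of the same 9 arrays gave 58 probes higher and 11 lower (0.191% and 0.0363% of probes), and 44 and 10 with the scanner as a block. Without M002 the deposited values gave 11 higher and 1 lower. In the scanner files, leaving out M011 gave 51 higher and 35 lower calls, with all remaining 3 Gy arrays on scanner 2 and M002 the only sham array there. Scanner 1 alone (M011 against 3 sham arrays) gave 50 higher and 39 lower, and scanner 2 alone (4 arrays against M002) 90 higher and 376 lower; in both fits the lone array was assumed to vary like the arrays of the other groups.

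**Figure D1:**
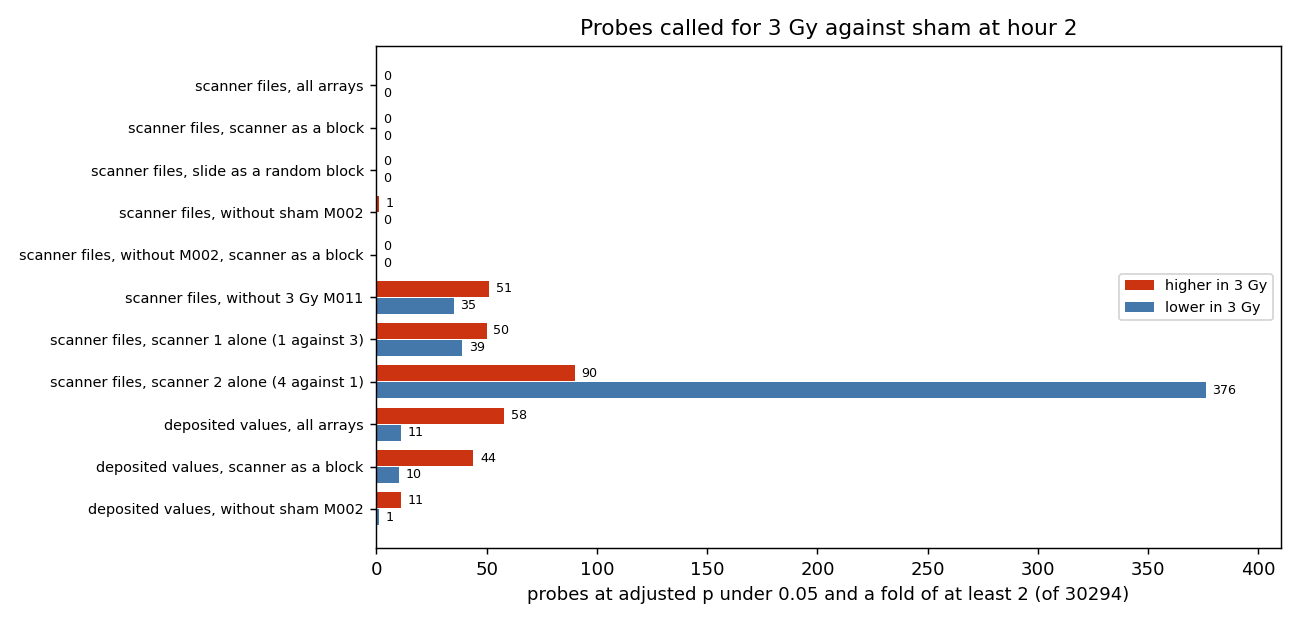
Number of probes called higher (red) or lower (blue) in 3 Gy than in sham skin, of 30294 tested, for the scanner files and the deposited values with all arrays, with a block, and with arrays left out. The scanner files gave 0 calls with all arrays and with scanner or slide as a block, and 376 lower calls where M002 is the only sham array.

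For counts over gene lists, each of 15740 genes was represented by its brightest tested probe, and an unadjusted p under 0.05 in limma was counted, which 5.91% of all genes met in the higher and 5.33% in the lower direction. The median difference of all genes was 0.03. All 30 p53 target genes listed were tested. Their median difference was 0.05, with 21 of 30 above 0, 2 higher and 2 lower at the unadjusted threshold. In 0 of the 30 did all 5 arrays of 3 Gy lie on one side of the 4 sham arrays (2.13% of all genes did so above and 1.05% below). Both shares of the list lay near those of all genes. With the scanner as a block the median was 0.14, with 3 higher and 1 lower (2.77% and 2.87% of all genes). With each array centred on its median instead of loess, the median of all probes shifted to -0.155 and that of the p53 list to -0.26. Of the 33 lists described here, 11 medians went from above to below 0 with this centring and 8 in the log ratios of the scanner software, and 0 went the other way, so list medians are given beside the median of all genes. The sign of the median turned for 3 of the 33 lists with the scanner as a block and for 5 without M002, and it turned or moved over 1.5 times for 22 and 22.

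The promoters of 4 p53 targets are printed because p53 binding defines the list and because these genes, all with the letters of a p53 half-site, had different values here: Ccng1 and Sesn1 above 0, Cdkn1a and Mdm2 below. Of the 30 listed genes 24 had a RefSeq promoter (GRCm38.p6), cut here to the 250 bases before the transcription start, in 32 windows. The p53 half-site consensus, 10 letters searched on both strands, was found in 9 of these 32 windows (28.1%) and in 7.13% of the 32851 windows of all genes. The sequences run 5′ to 3′ on the strand of the gene, with half-site matches in capitals. Ccng1 lies at chr11:40755287-40755536 (minus strand), Sesn1 at chr10:41887189-41887438 (plus), Cdkn1a at chr17:29090729-29090978 (plus) and Mdm2 at chr10:117710759-117711008 (minus).
Ccng1: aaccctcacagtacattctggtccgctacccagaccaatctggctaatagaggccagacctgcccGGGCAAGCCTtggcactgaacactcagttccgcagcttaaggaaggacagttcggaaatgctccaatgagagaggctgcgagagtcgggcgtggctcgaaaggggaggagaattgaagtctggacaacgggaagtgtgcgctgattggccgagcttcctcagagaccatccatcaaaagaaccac
Sesn1: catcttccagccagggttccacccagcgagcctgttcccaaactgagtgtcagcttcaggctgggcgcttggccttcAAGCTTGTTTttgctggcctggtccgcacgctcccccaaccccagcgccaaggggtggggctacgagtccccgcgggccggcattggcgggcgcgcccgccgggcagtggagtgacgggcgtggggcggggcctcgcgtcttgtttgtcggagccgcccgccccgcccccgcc
Cdkn1a: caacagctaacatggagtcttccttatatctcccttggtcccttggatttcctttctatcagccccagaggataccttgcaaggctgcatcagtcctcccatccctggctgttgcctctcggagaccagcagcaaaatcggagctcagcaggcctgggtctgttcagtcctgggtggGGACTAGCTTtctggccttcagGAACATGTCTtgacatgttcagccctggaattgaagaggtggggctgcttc
Mdm2: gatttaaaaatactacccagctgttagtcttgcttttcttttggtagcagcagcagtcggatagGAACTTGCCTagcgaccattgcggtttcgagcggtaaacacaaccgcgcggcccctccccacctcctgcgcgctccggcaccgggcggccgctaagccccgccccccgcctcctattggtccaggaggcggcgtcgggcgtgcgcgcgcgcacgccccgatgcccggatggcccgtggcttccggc
A match describes the letters in this window and not a bound site. The window of Cdkn1a was the only 1 of the 32 with 2 half-sites at most 13 bases apart.

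The p53 target with the smallest p was Trp53inp1, a p53-induced regulator of cell death and autophagy. Its level was 0.14 in M001, 0.35 in M004, 0.72 in M005 and 1.93 in M002 among the sham arrays, and 1.37, 1.62, 1.43, 1.90 and 2.00 in the 3 Gy arrays M011 to M015. The 5 irradiated arrays lay above 3 of the 4 sham arrays and overlapped with M002 alone. The difference was 0.88 ± 0.30 (SE, adjusted p = 0.277, limma), 0.74 with the scanner as a block and 1.26 without M002. On scanner 1, M011 exceeded the mean of 3 sham arrays by 0.96, while on scanner 2 the mean of 4 irradiated arrays minus M002 was -0.19. In the deposited values the difference was 0.45 (adjusted p = 0.171).

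Ccng1, a cyclin that p53 induces and that acts back on Mdm2, was 0.42, -0.69, 1.18 and 0.30 in the sham arrays M001, M002, M004 and M005, and 1.16, 1.82, 1.72, 0.77 and 0.95 in the 3 Gy arrays M011 to M015. The groups overlapped through M004. The difference was 0.98 ± 0.44 (SE, adjusted p = 0.368, limma), 0.82 with the scanner as a block and 0.65 without M002, and in the deposited values it was -0.08. Sesn1, a stress protein that restrains mTORC1, lay between 1.01 and 1.59 in sham and between 1.32 and 2.21 in 3 Gy skin. Its difference of 0.49 ± 0.25 (SE, adjusted p = 0.399) was 0.58 with the scanner as a block and 0.59 on scanner 1. It was 0.38 without M002 and 0.27 in the deposited values. Ddit4l, an inhibitor of mTORC1, was 3.29, 2.67, 3.97 and 2.50 in the sham arrays and 3.99, 5.65, 5.84, 2.96 and 5.46 after 3 Gy. Its difference of 1.67 ± 1.11 (SE, adjusted p = 0.503) had the largest SE of these genes. It was 0.65 without M002 and with the scanner as a block and 0.25 in the deposited values, and M014 lay inside the sham range.

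Cdkn1a, the cell cycle inhibitor p21 and the best known p53 target, was 0.97, 1.03, 0.95 and 1.22 in sham skin and 1.20, 0.31, 1.15, -0.07 and 0.47 after 3 Gy. Its difference was -0.43 ± 0.41 (SE, adjusted p = 0.641) and -0.11 with the scanner as a block. Mdm2, the ubiquitin ligase that removes p53, lay between -0.98 and -0.76 in sham and between -1.33 and -0.98 in 3 Gy skin, a difference of -0.32 ± 0.21 (SE, adjusted p = 0.491). Btg2, an antiproliferative factor, differed by -0.41 and by 0.04 in the deposited values. Bax, Pmaip1 and Bbc3, which drive cell death, had differences of 0.36, 0.52 and 0.45, and with the scanner as a block of 0.14, 0.19 and 0.08. Without M002 their differences were 0.59, 0.75 and 0.67, and in the deposited values -0.088, 0.205 and -0.09. Of the 30 genes the sign turned for 4 with the scanner as a block, 4 without M002, 9 on scanner 1, 7 on scanner 2 and 13 in the deposited values, Bax, Bbc3, Btg2 and Ercc5 among the last. Phlda3, an inhibitor of Akt, was -0.49 to -0.25 in the 4 arrays of scanner 1, 0.01 in M002 and 0.18 to 0.76 in the 3 Gy arrays of scanner 2. Eda2r, a receptor of the TNF receptor family, was 1.01 in M013 and -0.47 to 0.10 in the other 8 arrays.

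The lower genes at the unadjusted p were Zfp365, a zinc finger protein, at -0.50 (adjusted p = 0.316) and Rrm2b, a ribonucleotide reductase subunit, for which no fold is given because its probe was well above background in 0 of 4 sham and 1 of 5 irradiated arrays. In the deposited values 2 of the 30 passed the adjusted p: Ercc5, an endonuclease of nucleotide excision repair, rose by 0.44 and Plk2, a stress-responsive kinase, fell by 0.49 (adjusted p = 0.043 and 0.0481, 0.103 and 0.289 without M002, and 0.0512 and 0.0814 with the scanner as a block), against -0.03 and -0.46 in the scanner files.

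**Figure D2:**
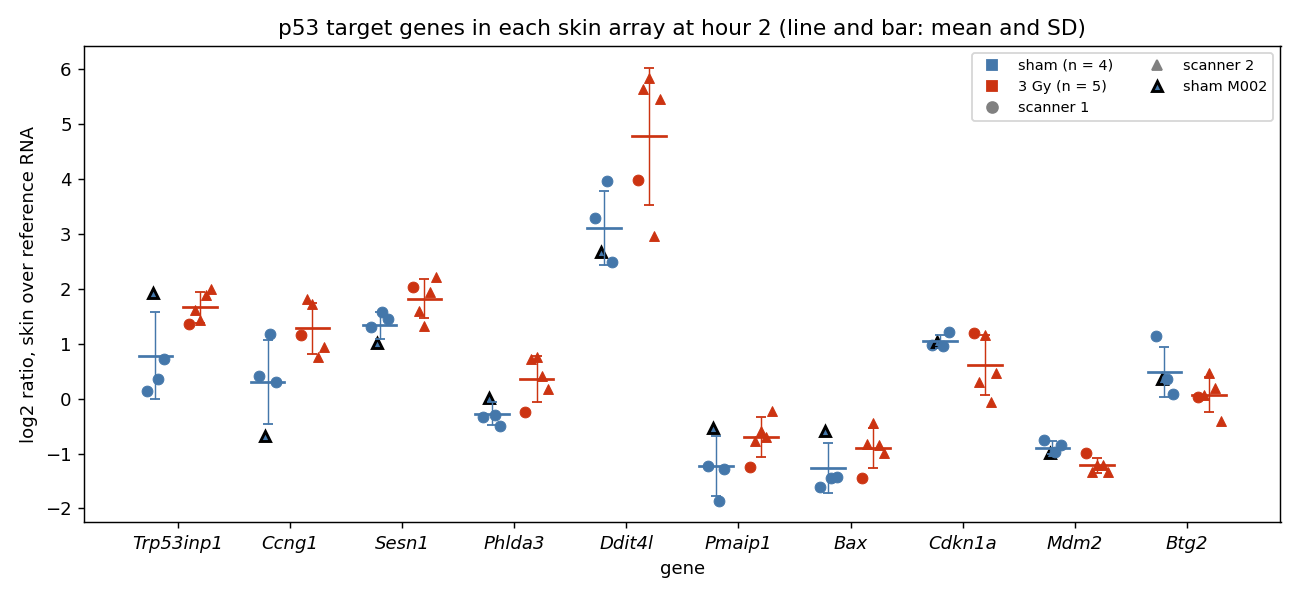
Level (log2 ratio of skin over reference RNA) of p53 target genes in each array at hour 2, sham in blue and 3 Gy in red, circles for scanner 1 and triangles for scanner 2, with mean and SD. Trp53inp1 in the irradiated arrays lies between 1.37 and 2.00, above all sham arrays except M002 (black outline), and the Cdkn1a and Mdm2 means are not higher after 3 Gy.

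The doses share the 4 sham arrays, so their differences are given side by side. Trp53inp1 differed from sham by 0.88 at 1 Gy, 0.88 at 3 Gy and -0.08 at 6 Gy. Without M002 it differed by 1.26, 1.26 and 0.30, so that the sign at 6 Gy rested on M002. Its level was 1.281 and 0.894 in the 6 Gy arrays M016 and M017, and 0.333 and 0.315 in M019 and M020. In M020 Cdkn1a (-0.193) and Gdf15 (-0.205) also lay near 0, against sham means of 1.043 and -1.935. The 6 Gy differences thus include an array with levels close to 0. Ccng1 differed by 1.37, 0.98 and 1.07, Phlda3 by 0.97, 0.64 and 0.49, and Gdf15, a stress-induced cytokine, by 0.89, 0.45 and 0.65 at 1, 3 and 6 Gy. Cdkn1a differed by -0.67, -0.43 and -1.03. The median of the p53 list was 0.12 at 1 Gy, 0.05 at 3 Gy and 0.01 at 6 Gy, and 0.21, 0.13 and 0.07 without M002, the highest value being that of the lowest dose in both.

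**Figure D3:**
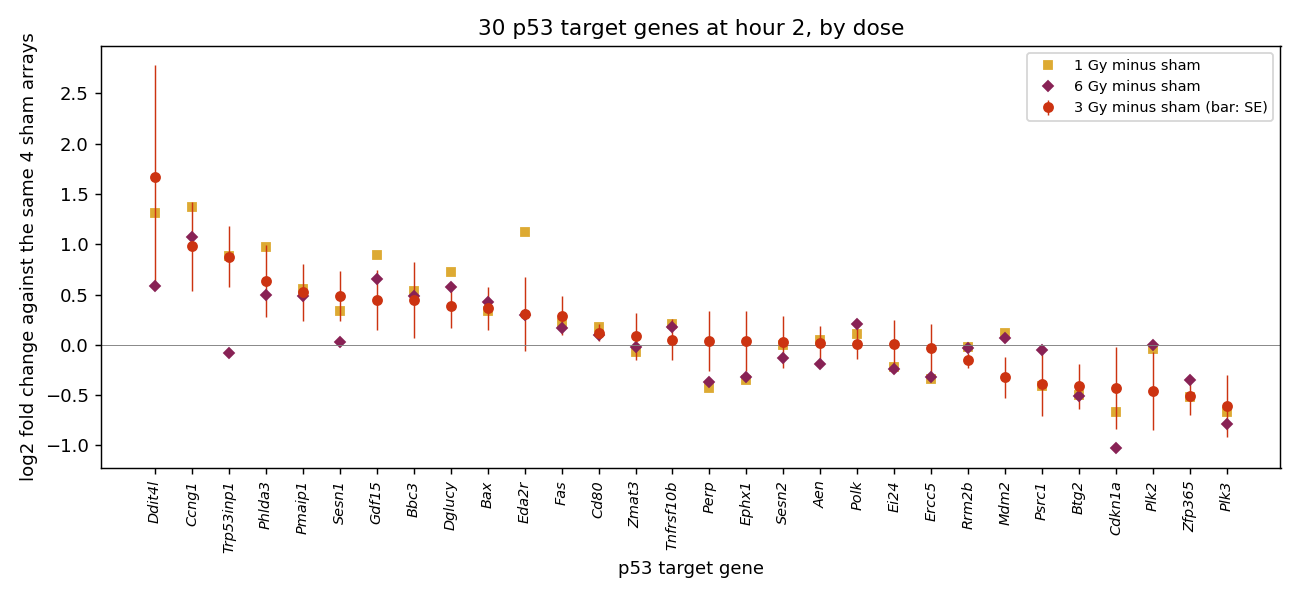
Log2 fold change of the 30 p53 target genes at hour 2 against the same 4 sham arrays, for 1 Gy (yellow squares), 3 Gy (red circles, bar is the SE) and 6 Gy (purple diamonds), ordered by the 3 Gy value. Trp53inp1 is 0.88 at 1 Gy, 0.88 at 3 Gy and -0.08 at 6 Gy, the last becoming 0.30 without sham M002. Its level is 0.333 and 0.315 in the 6 Gy arrays M019 and M020, against 1.281 and 0.894 in M016 and M017.

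Direct comparisons of 3 Gy with 1 Gy and with 6 Gy skin used groups with 1 array each on scanner 1. Neither gave a call in either direction by limma (0% of 30294 probes in all 4 counts), with smallest adjusted p-values of 0.981 and 0.7. At an unadjusted p under 0.05, 2.29% of genes were higher and 0.928% lower in 3 Gy than in 1 Gy skin (1030 probes in all), and 3.66% of genes were higher and 2.59% lower than in 6 Gy skin (1945 probes). Leaving out single arrays moved the first count to between 687 and 1956, with the most without 3 Gy M014, and the second to 610 without 6 Gy M020, 696 without 6 Gy M019, 998 without M012, 1117 without M013, 3199 without M014, 3668 without 6 Gy M017 and 4751 without 6 Gy M016. The arrays of the other doses varied among themselves. Among the 17 h2 arrays of sham, 1, 3 and 6 Gy skin, M020 had the lowest mean in 14 of the 33 lists. Its endothelial mean was 0.21, against 0.96 in 6 Gy M019, 0.52 in 1 Gy M009 and 1.88 to 2.63 in 3 Gy skin. In the DNA repair and proliferation lists, whose means were below 0, M020 was instead the highest of these arrays (-0.13 and -0.78). Its means thus lay closer to 0 in lists of either sign. Of the p53 targets, 0 were higher and 2 lower than at 1 Gy, namely Mdm2 at -0.45 and Eda2r at -0.82 (adjusted p = 0.981 and 0.981). Leaving out single arrays gave 0 to 3 lower, with 0 without M012, 3 without M013 and 1 without M006, M007, M009, M010 or M015. The deposited values gave 3 higher and 4 lower, where 3605 of the 30294 probes had an unadjusted p under 0.05. Against 6 Gy 1 was higher, Trp53inp1, by 0.96 ± 0.30 (SE, adjusted p = 0.7), and 0 were lower. The count was 4 higher and 1 lower without 6 Gy M017, 2 higher and 2 lower without 6 Gy M016, 2 higher and 0 lower without M013 and 1 higher and 1 lower without M011, M014 or M015. In the deposited values it was 5 higher and 4 lower, where 5837 of the 30294 probes had an unadjusted p under 0.05. The mean of M014 and M015 minus that of the 2 arrays of 6 Gy on their slide was 1.14 for Trp53inp1, and M012 and M013 minus the 2 arrays of 1 Gy on theirs gave -0.34. Of 30 proliferation genes 7 were lower at 3 than at 6 Gy, with a list median of -0.58 over all arrays and -0.31 on the shared slide. The median was -0.14 with 0 lower with median centring. In the deposited values the median was 0.10 with 3 higher and 1 lower (5837 of the 30294 probes had that p there). The list mean was -2.59 to -2.37 at 3 Gy and -2.52, -2.56, -1.65 and -0.78 in the 6 Gy arrays M016, M017, M019 and M020, so that M019, which is on the shared slide, and M020 stood above the rest. Without M020, 0 genes were lower with a median of -0.17, and without M019 0 with -0.52. Without M016 16 were lower with -0.89 and without M017 17 with -0.81, and leaving out 3 Gy arrays gave 0 to 7 lower. Deposited values gave 0 calls against 1 Gy, and 4 higher and 1 lower against 6 Gy. The lower one (-1.02, adjusted p = 0.0128) and 1 of the higher ones had no symbol. Of the others, Cldn1, a tight junction protein (1.07, adjusted p = 0.0255), Lad1, a basement membrane anchoring protein (1.27, adjusted p = 0.0372), and Sult2b1, a cholesterol sulfotransferase of the epidermis (1.04, adjusted p = 0.0151), were higher at 3 Gy.

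In the values from the scanner files, a pair of zinc finger protein genes had the smallest p in the lower direction. Zfp566 was 0.65, 0.29, 0.33 and 0.00 in the sham arrays M001, M002, M004 and M005 and -0.11, -0.60, -0.39, -0.46 and -0.54 in the 3 Gy arrays M011 to M015. Every irradiated array lay below every sham array. The difference was -0.74 ± 0.14 (SE, adjusted p = 0.0563, limma), -0.63 with the scanner as a block and -0.75 without M002, and in the deposited values Zfp566 fell by 0.40 (adjusted p = 0.00416, and 0.0413 without M002). Zfp93 lay between -0.14 and 0.22 in sham and between -0.53 and -0.14 after 3 Gy, a difference of -0.40 ± 0.08 (SE, adjusted p = 0.105) that was -0.40 on scanner 1 and -0.42 on scanner 2. Both probes were well above background in all 9 arrays.

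Other genes of the lower group rested partly on M002. Enc1, an actin-binding protein, was 1.16 in M002, -0.32 to 0.22 in the other sham arrays and -1.13 to -0.71 after 3 Gy, a difference of -1.19 (adjusted p = 0.167) that was -0.90 without M002. Bnc1, a basonuclin of basal keratinocytes, was 1.49 in M002 and -0.38 to 0.16 in the other sham arrays, and its difference of -1.30 became -0.90 without M002. Mycn, a transcription factor of growing cells, Npy, a neuropeptide, Fem1b, a substrate receptor of a ubiquitin ligase, and Pard6b, a polarity protein, had differences of -0.57, -0.51, -0.82 and -0.69, which were -0.32, -0.25, -0.41 and -0.51 without M002. On scanner 1 another Fem1b probe went the other way, at 1.07 against -0.32 for the probe used here. Neat1 (-1.64 ± 0.43, adjusted p = 0.207) separated by scanner as described, with a difference of -0.85 with the scanner as a block, -0.82 on scanner 1 and -0.62 on scanner 2, and 2310033P09Rik differed by -0.59.

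In the higher direction the 10 genes with the smallest p included 5 whose probes were not well above background in any sham array, for which only a lower bound of the fold is given. The bound sets the mean of the 3 Gy arrays in the skin channel against, in each sham array, the higher of its lowest well-measured signal and the probe's own signal. The own signal was the higher in all 4 sham arrays for these probes, so the bound is the ratio of both groups' mean signals in Cy5. Defb7, an antimicrobial defensin, was well above background in 4 of the 5 arrays of 3 Gy and at least 1.71-fold higher (adjusted p = 0.21, limma). Its deposited values were -0.31 to 0.33 in sham skin, 0.22 in M013 and 0.71 to 1.44 in the other 4 arrays of 3 Gy (adjusted p = 0.0123, and 0.0351 without M002). Slc15a1, a transporter of small peptides, was at least 1.30-fold higher (adjusted p = 0.207, and 0.0182 in the deposited values). Olfr645, Adgra1 and Scn1a, an odorant receptor, an adhesion receptor and a sodium channel subunit, had bounds of 1.35-fold, 1.23-fold and 1.11-fold. Their adjusted p was 0.167, 0.207 and 0.21 (limma), and 0.232, 0.131 and 0.246 in the deposited values. For Olfr645 and Adgra1, M011, the only 3 Gy array on scanner 1, lay within the sham range. The bounds take no account of the spread between arrays.

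The other 5 were measured in both groups. They were Ppm1f, a protein phosphatase, at 0.89, Cd53, a tetraspanin of leukocytes, at 0.89, Calu, a calcium-binding protein of the secretory pathway, at 0.76, Dnajb4, a heat shock co-chaperone, at 0.77, and Gimap4, a GTPase of lymphocytes, at 0.35 (adjusted p = 0.207 to 0.211, limma). On scanner 1 their differences were 0.23, 0.24, 0.27, 0.24 and 0.33, and on scanner 2, against M002 alone, they ran from 0.30 for Gimap4 to 1.45 for Ppm1f. In the deposited values the 5 differences were 0.05, 0.23, -0.03, 0.35 and 0.18, and 0 of them passed the adjusted p.

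The deposited values held the calls of the comparison. Ano1, a calcium-activated chloride channel, was 0.75, 0.18, 0.48 and 0.85 in the sham arrays M001, M002, M004 and M005 and 1.64, 1.58, 1.70, 1.59 and 1.61 in the 3 Gy arrays M011 to M015 in these values, with no overlap, and rose by 1.06 ± 0.16 (SE, adjusted p = 9.75e-05, limma, and 0.00681 without M002). In the scanner files the difference of Ano1 was 0.56 (adjusted p = 0.437) and 0.16 without M002. There M002 was at -0.24, M001, M004 and M005 at 1.69, 1.45 and 1.03 and the 3 Gy arrays at 1.03 to 1.80. Gsta1, a glutathione S-transferase, rose by 1.22 (adjusted p = 0.00105) from -0.71 to -0.15 in sham to 0.26 to 1.18 in 3 Gy skin, and Cyp3a13, a cytochrome P450, by 1.16 (adjusted p = 0.00255). Near-identical paralogs such as Gsta1 and Gsta2 can hybridise to the same probe and are not resolved with certainty. Further higher genes were 1810037I17Rik at 0.69, Dhcr7, which makes the last step of cholesterol synthesis, at 0.99 and Gsta2 at 0.89.

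Gas2l3, a linker of actin and microtubules in dividing cells, fell by 0.75 in the deposited values, from -1.10 to -0.53 in sham to -1.82 to -1.41 in 3 Gy skin (adjusted p = 9.75e-05, and 0.00902 without M002), a change short of 2-fold, and the groups did not overlap in the scanner files either, where the difference was -1.03. Procr, the receptor of protein C, fell by 1.00 (adjusted p = 0.00277), from 0.01 to 0.62 in sham to -0.86 to -0.58. In the scanner files the difference of Procr was -0.49 and without M002 0.00. Zfp11, Hes5, a Notch target, Zfp763 and Zxdc differed by -0.43, -0.61, -0.48 and -0.57 in the deposited values, each past the adjusted p (Hes5 at 0.0563 without M002), and Hes5 was 1.22 in M002 against 0.36 to 0.61 in the other sham arrays.

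Of the 58 higher probes 55 had a symbol, for 53 genes, and 9 of the 11 lower probes had one. Some of these genes are named here after their values were seen. Cyp2b10, a cytochrome P450 that handles foreign compounds and has close paralogs, had deposited values of 1.26 to 2.24 in sham and 2.59 to 3.37 in 3 Gy skin and rose by 1.39 (adjusted p = 0.00419, and 0.041 without M002). Cyp1a1, the classical target of the aryl hydrocarbon receptor, rose by 1.31 (adjusted p = 0.00467, and 0.0593 without M002) and differed by 1.65 in the scanner files, 1.52 on scanner 1 and 2.25 on scanner 2. Hrnr, the cornified envelope protein hornerin, rose by 1.88 (adjusted p = 0.0197, and 0.15 without M002) and Tmprss4, a membrane serine protease, by 1.72 (adjusted p = 0.00398, and 0.0593 without M002). Nfkbia, the inhibitor of NF-kB, rose by 1.15 in the deposited values (adjusted p = 0.00419, and 0.0511 without M002) and differed by -0.26 in the scanner files, where the M002 spot was an outlier and left out. Per1, a clock gene, rose by 1.03 (adjusted p = 0.0293, and 0.12 without M002), from 0.06 to 0.49 in sham skin to 0.39 in M013 and 1.06 to 1.66 in the other 4 arrays of 3 Gy. Among the lower probes was Krtap7-1, a keratin-associated protein of the hair shaft, at -1.37 (adjusted p = 0.0293, and 0.35 without M002), which was 3.80 in M002, 1.31 to 1.36 in the other sham arrays and 0.23 to 0.93 after 3 Gy.

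The deposited calls kept their direction in the scanner files more often than their p. Of the 58 higher probes 56 were also above 0 there and 11 had an unadjusted p under 0.05, with a median difference of 1.01 against 1.20 in the deposited values, and all 11 lower probes were below 0, 7 of them past that p. With the scanner as a block 42 of the 58 and 8 of the 11 were still called in the deposited values, and without M002 9 and 1 were. Among genes at an adjusted p under 0.05 in the deposited values (263 higher and 158 lower, 1.67% and 1% of genes), 59 higher and 76 lower ones also had an unadjusted p under 0.05 in the same direction in the scanner files. Of these, 14 higher and 14 lower genes had groups that overlapped in neither set of values. Both sets of values come from the same arrays, so this is a description and not a second measurement.

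The 28 genes were chosen from their values. Among the higher ones were the class I major histocompatibility genes H2-K1, H2-Q7 and H2-Bl, which present peptides to T cells, and Tap1, the transporter that supplies those peptides. H2-Q7 was 0.94, -0.08, 1.16 and 1.11 in the sham arrays M001, M002, M004 and M005 and 1.23, 1.59, 1.91, 1.56 and 1.44 in the 3 Gy arrays M011 to M015. Its difference was 0.76 ± 0.26 (SE, adjusted p = 0.272), and in the deposited values it rose by 0.58 (adjusted p = 0.0459, 0.281 without M002 and 0.0907 with the scanner as a block). Tap1 lay between -0.31 and -0.01 in sham and between 0.06 and 1.38 in 3 Gy skin, and rose by 0.60 in the deposited values (adjusted p = 0.0249, 0.15 without M002 and 0.0591 with the block). H2-K1 and H2-Bl rose by 0.77 and 0.82 in the deposited values (adjusted p = 0.0138 and 0.0192, and 0.121 and 0.142 without M002, and 0.0269 and 0.0581 with the block). On scanner 1 the differences of H2-Q7, Tap1, H2-K1 and H2-Bl in the scanner files were 0.16, 0.19, 0.09 and 0.32. Class I genes are close paralogs, so a probe may read several of them. Il15, a cytokine that supports T and NK cells, was 0.02 to 0.24 in sham and 0.31 to 0.99 in 3 Gy skin and rose by 0.43 in the deposited values (adjusted p = 0.0427, 0.177 without M002 and 0.1 with the block).

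**Figure D4:**
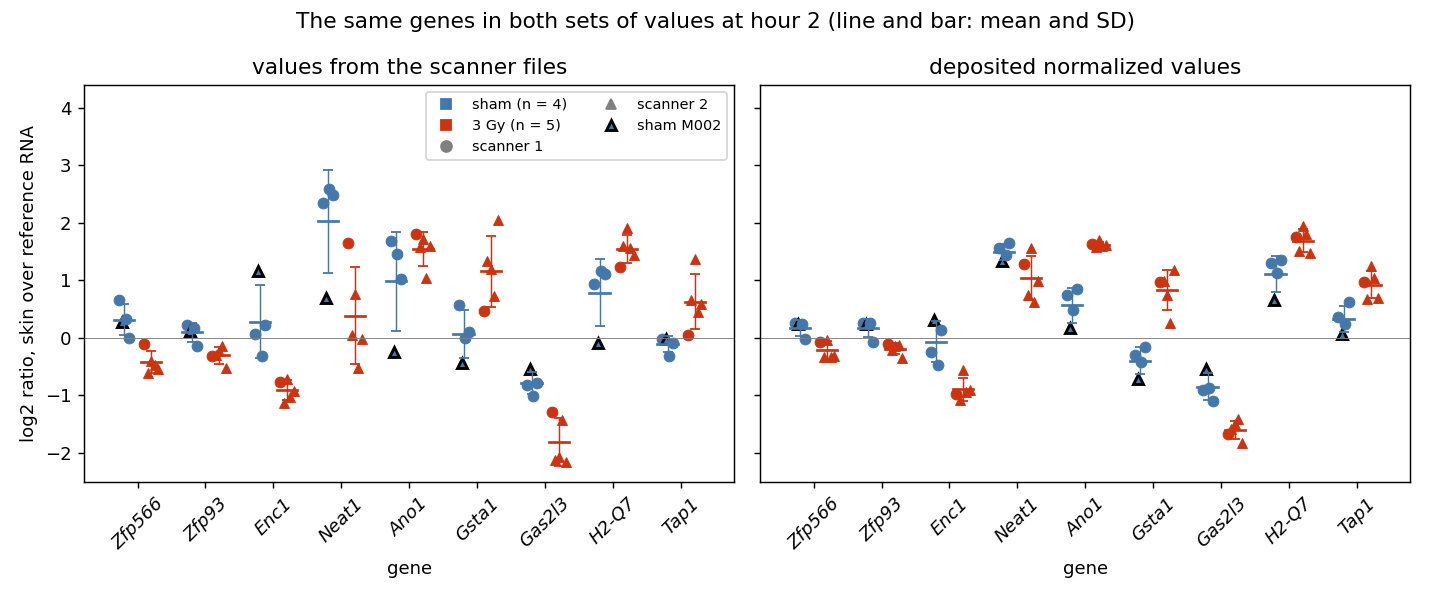
Levels (log2 ratio) of 9 genes in each array at hour 2 in the values from the scanner files (left) and in the deposited values (right), sham in blue and 3 Gy in red, circles for scanner 1 and triangles for scanner 2, with mean and SD. Zfp566 is lower in all irradiated arrays on the left, Neat1 separates by scanner on the left, and Ano1 separates by group on the right (0.18 to 0.85 against 1.58 to 1.70).

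Among the gene lists, that of the growing hair follicle had the lowest median, -1.15 over 20 genes with 0 above 0 and 6 lower at the unadjusted p. In the scanner files it rested on M002. Without M002 the median was 0.12 with 0 lower (6.69% of all genes were higher and 7.15% lower at that threshold). The scanner block, in which M002 is compared with the irradiated arrays of its own scanner, gave -1.42 with 13 lower. The deposited values gave a median of -0.91, and -0.39 without M002, with a list mean of 3.52 in M002, 1.27 or more in the other sham arrays and 0.88 to 1.36 after 3 Gy. Krt34, Hoxc13 and Lef1, a hair keratin and a pair of transcription factors of the hair matrix, differed by -2.04, -0.58 and -0.87 with all arrays and by -0.41, -0.13 and -0.33 without M002. The fibroblast and matrix genes went the other way in M002: the mean of 24 genes was -0.18 in M002, 1.32 to 1.38 in the other 3 sham arrays and 0.89 to 1.57 in 3 Gy skin. Their median difference was 0.36 with all arrays, -0.05 without M002 and -0.06 with median centring. Sparc, a collagen-binding protein, was -0.06 in M002, 4.28 to 5.01 in the other sham arrays, 4.52 in M011 and 1.55 to 2.19 in the other 3 Gy arrays, so that M011 lay with the sham arrays of its scanner.

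The study's lists of collagens, coagulation and blood genes had 0 members past the unadjusted p in the scanner files with all arrays. With the scanner as a block the GP6 list had 1 higher, and without M002 each of the 3 lists had 1 lower. The 16 tested genes of the GP6 list (GP6 is the platelet collagen receptor) had a median of 0.06, which was 0.57 under the scanner block, -0.19 without M002 and -0.38 with median centring; the ends were Col15a1 at 1.18 (M004 left out as an outlier spot) and Col3a1 at -0.34, and Col7a1, the anchoring fibril collagen, rose by 0.94 in the deposited values (adjusted p = 0.025, and 0.211 without M002). The 8 genes of the prothrombin list had a median of 0.18, 0.61 under the scanner block, 0.06 without M002 and -0.25 with median centring. Of these, Klk8, an epidermal protease, differed by 1.34 and rose by 1.13 in the deposited values (adjusted p = 0.0172, and 0.125 without M002). The 9 tested blood genes had a median of 0.14 (-0.14 without M002), between Hba-a1, an alpha globin with a near-identical copy, at -0.74 (M012 left out as an outlier spot) and Hjv, the iron regulator hemojuvelin, at 1.29. The study chose these lists on this series, so they are not independent evidence.

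With all arrays and no block, interferon-response genes held the most members at the unadjusted p of the 33 lists. Of 23 genes 10 were higher and 0 lower (5.91% and 5.33% of all genes), with a median of 0.55 (0.11 with median centring). In 5 all irradiated arrays lay above all sham arrays (2.13% of all genes). Other lists held more with the scanner as a block (growing hair follicle) and without M002 (immediate early). Against the same sham arrays the list median was 0.42 at 1 Gy and 0.58 at 6 Gy. The list median of 3 Gy minus 1 Gy was 0.11 and of 3 Gy minus 6 Gy 0.02, with 0 genes past the unadjusted p in either. Ifi35, an interferon-induced protein, was 0.22, -0.45, -0.11 and -0.15 in the sham arrays M001, M002, M004 and M005 and 0.25, 0.67, 0.75, 0.30 and 0.41 in the 3 Gy arrays M011 to M015, a difference of 0.60 ± 0.17 (SE, adjusted p = 0.237, limma). Gbp3, a guanylate-binding protein, lay between -0.23 and 0.22 in sham and between 0.24 and 1.75 in 3 Gy skin, with a difference of 1.11 ± 0.39 (SE, adjusted p = 0.283). Oasl2 and Ifit3, antiviral proteins, differed by 0.99 and 0.99, with M013 highest at 1.24 and 1.90. The mean of the list was -1.07 to -0.59 in sham and -0.63, -0.46, 0.30, -0.43 and -0.20 in M011 to M015. M011, the 3 Gy array of scanner 1, lay within the sham range, and the list median was 0.08 on scanner 1 and 0.78 on scanner 2. With the scanner as a block 4 genes were higher with a median of 0.41, without M002 5 with 0.51, and with both 1 with 0.28 (0.731% of all genes were higher and 0.826% lower there). In the deposited values the median was 0.24 and 0 of 23 passed the adjusted p.

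Immediate early genes, which respond to handling and wounding within minutes, had a median of -0.27 over 28 genes with 1 higher and 5 lower. With the scanner as a block it was -0.01 with 0 higher and 3 lower (2.77% and 2.87% of all genes). Without M002 it was -0.35 with 1 higher and 7 lower (6.69% and 7.15% of all genes). Without M002 and with the block it was -0.01 with 0 higher and 4 lower (0.731% and 0.826% of all genes). Fos was 3.53, 0.94, 2.33 and 0.77 in the sham arrays M001, M002, M004 and M005 and 0.36, 0.10, 1.52, -0.23 and -1.13 after 3 Gy, a difference of -1.77 ± 0.71 (SE, adjusted p = 0.328). Egr1 was 1.76, -0.37, 0.76 and -0.44 in sham and -1.95 to -0.25 in 3 Gy skin, and differed by -1.58 (adjusted p = 0.303). Both were highest in sham M001, and for both the groups overlapped. Dusp2, a phosphatase, was 4.88 in M002 and -0.75 to 0.34 in the other 8 arrays. In the deposited values the list median was 0.23, and Fos and Egr1 differed by -0.32 and -0.37 (adjusted p = 0.865 and 0.766).

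Among cell type lists, the 15 endothelial genes were all above 0 with loess, with a median of 0.57 and 3 higher at the unadjusted p, 0 with the scanner as a block and 1 without M002. The median was 0.49 on scanner 1, 0.31 without M002, 0.09 in the deposited values and -0.08 in the log ratios of the scanner software. Emcn, the endothelial sialomucin, differed by 1.68 and Pecam1, an endothelial adhesion molecule, by 0.92 (adjusted p = 0.388 and 0.336). Mast cell genes had a median of 0.63 and -0.05 in the deposited values, and 3 of 9 were higher (2 with the block, 1 without M002 and 0 with both), among them Hdc, the enzyme that makes histamine, at 1.11. Macrophage and dendritic cell genes had a median of 0.45 and 0.08 in the deposited values, and 3 of 17 were higher (2 with the block, 2 without M002 and 0 with both), among them the surface markers Itgam at 0.80 and Adgre1 at 1.12. Cd207, the langerin of epidermal Langerhans cells, rose by 0.87 in the deposited values (adjusted p = 0.0221, 0.172 without M002 and 0.0515 with the block). Lymphocyte genes had a median of 0.09 with 3 of 19 higher and 0 lower (5 higher and 0 lower with the scanner as a block, 1 higher and 2 lower without M002 and 0 higher and 0 lower with both), of which Cd3g, a T cell receptor chain, differed by 0.58 and rose by 0.60 in the deposited values (adjusted p = 0.0381, 0.265 without M002 and 0.0601 with the block).

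Sebaceous gland genes had a median of 0.77, which was 0.11 on scanner 1, 0.49 without M002 and 0.18 without M002 and with the scanner as a block. Adipocyte genes had a median of 0.73, which was 0.27 with the block, 0.19 in the deposited values and -0.02 with the block and without M002. Plin2, a lipid droplet protein, differed by 0.88 without overlap of the groups and rose by 0.84 in the deposited values (adjusted p = 0.0169, and 0.108 without M002), and Cd36, a fatty acid transporter, differed by 1.43. Neutrophil genes had a median of 0.20 with 1 of 13 higher (1 with the block, 2 without M002 and 0 with both). Erythroid, platelet, melanocyte, muscle and bulge genes had medians of 0.08, 0.12, 0.21, 0.25 and -0.07, and without M002 0.15, 0.00, 0.21, 0.03 and -0.18. M002 was the lowest of the 9 arrays in the mean of the endothelial, mast cell, macrophage and sebaceous lists. It was the lowest of all 82 arrays in the interferon-response, IL-6 and STAT3, lymphocyte, cytokine and platelet lists. The part of its skin composition in these values was not tested.

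Epidermal genes had 0 members past the unadjusted p in the scanner files with all arrays, and 1 basal gene was lower without M002. The lists had medians of 0.50 over 23 genes of differentiated and -0.11 over 12 of basal epidermis. With the scanner as a block the medians were 0.25 and 0.22, without M002 0.26 and -0.38, and in the log ratios of the scanner software -0.30 and -0.29. In the deposited values the medians were 0.59 and 0.45, and 3 of the 12 basal genes passed the adjusted p. Trp63, the master regulator of stratified epithelia, rose by 1.02 (adjusted p = 0.0244, 0.0299 without M002 and 0.0604 with the scanner as a block), Lamb3, a chain of an epidermal laminin, by 0.93 (adjusted p = 0.00562, and 0.0645 without M002) and the integrin Itga6 by 0.47 (adjusted p = 0.0407, and 0.235 without M002). Trp63 overlapped between the groups through M002, at 5.46 against 4.25 to 4.46 in the other sham arrays and 5.10 to 6.03 in 3 Gy skin. The ends of the differentiated list in the scanner files were Ivl, the cornified envelope protein involucrin, at 1.35 and Sprr1a, another envelope precursor, at -0.86.

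DNA repair genes had a median of -0.18 over 28 genes with 0 higher and 3 lower (0 higher and 1 lower with the scanner as a block, 2 higher and 3 lower without M002 and 0 higher and 1 lower with both), of which Lig4, the ligase of end joining, differed by -0.38 and fell by 0.37 in the deposited values (adjusted p = 0.0434, and 0.231 without M002). Proliferation genes had a median of -0.21 with 0 of 30 past the unadjusted p (1 lower without M002), and ribosomal protein genes -0.12 with 1 lower of 24 (0 with the scanner as a block). Histone genes had a median of 0.52 with 3 of 13 higher (1 with the block, 4 without M002 and 0 with both). H1f4, a linker histone, separated by scanner, at -3.83 to -2.71 on scanner 1 and higher in every array of scanner 2, sham M002 at -0.50 included, and the list median on scanner 1 was 0.01. Respiratory chain genes had a median of 0.33 with 4 of 28 higher, among them Cox6c at 1.28, and 0.10 with 0 higher under the scanner block, and without M002 4 higher and 2 lower.

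Stress and hormone lists had medians between 0.00 and 0.11 in the scanner files with all arrays. That of the glucocorticoid-response genes was 0.34 with the scanner as a block and 0.36 in the deposited values, and that of the circadian clock genes was 0.19 and 0.35. Without M002 the medians were -0.22 and 0.03, with 1 higher and 2 lower in the first list and 1 higher and 3 lower in the second. The circadian list had 3 of 17 past the adjusted p in the deposited values. Heat shock genes had a median of 0.11 with 2 of 20 higher. Oxidative stress genes had a median of 0.11 with 2 of 24 higher, Gsta1 at 1.09 and Ftl1, the ferritin light chain, at 0.85, and 2 lower, Gclc, an enzyme of glutathione synthesis, at -0.85 and Nfe2l2, the transcription factor NRF2, at -0.40 (1 higher and 0 lower with the scanner as a block, 2 higher and 1 lower without M002 and 0 higher and 0 lower with both). Glucocorticoid-response genes had a median of 0.00 with 2 of 19 higher, Klf9 at 0.92 and Angptl4 at 1.14, the latter without M002, whose spot was an outlier. Circadian clock genes had a median of 0.07 with 2 of 17 higher, Rora at 1.16 (M005 left out as an outlier spot) and Nr1d1 at 0.77, and Rora rose by 0.92 in the deposited values (adjusted p = 0.02, and 0.115 without M002). The IL-6 family and STAT3 list had a median of 0.10 (0.00 without M002) with 3 of 20 higher and 0 lower (2 higher and 0 lower with the scanner as a block, 1 higher and 1 lower without M002 and 0 higher and 0 lower with both): Jak1, a kinase of cytokine receptors, at 0.56, and the receptor chains Il6ra at 0.71 and Lifr at 0.71. Jak1 and Lifr were without overlap of the groups, and the deposited median of the list was 0.13 with 0 higher genes past the adjusted p and 1 lower, Il1r1, a receptor of interleukin 1, at -0.28 (adjusted p = 0.0468, 0.101 without M002 and 0.0807 with the scanner as a block). Cytokine and chemokine genes had a median of 0.09 with 1 of 25 higher, Cxcl9, an interferon-induced chemokine, at 1.07, and without M002 0 higher and 2 lower.

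**Figure D5:**
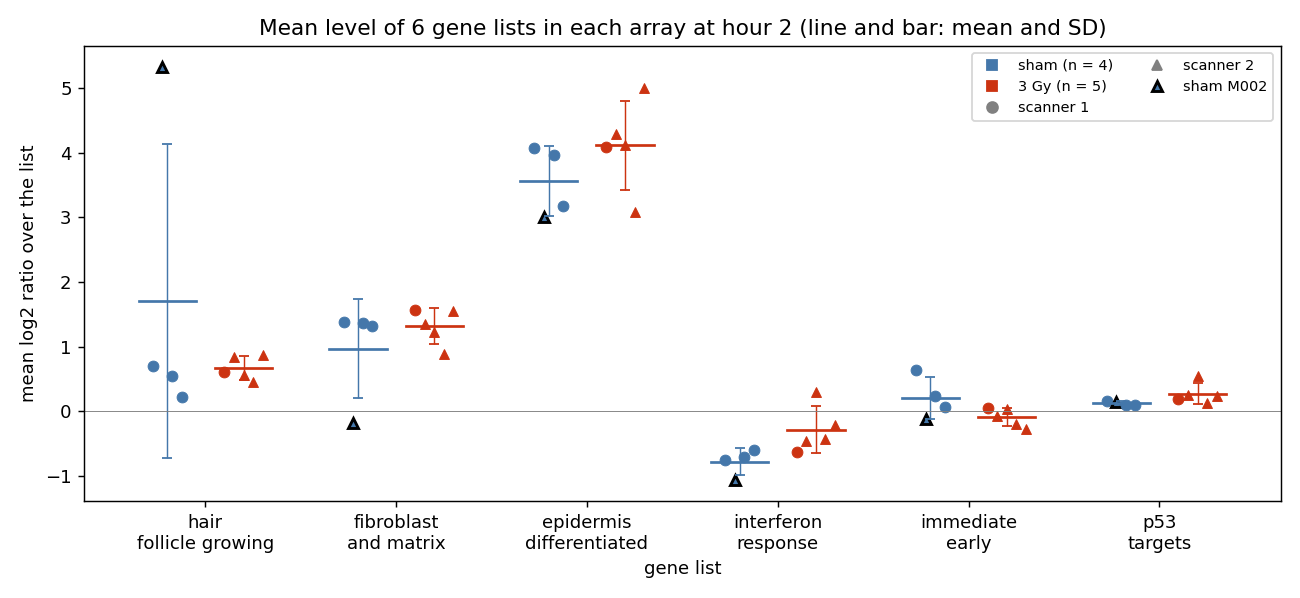
Mean log2 ratio over the tested genes of 6 lists in each array at hour 2, sham in blue and 3 Gy in red, circles for scanner 1 and triangles for scanner 2, with mean and SD. The growing hair follicle mean of sham M002 (black outline) is 5.33 against 0.22 to 0.87 in the other 8 arrays; interferon-response means are -1.07 to -0.59 in sham and -0.63 to 0.30 after 3 Gy.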

How the data were processed

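Skin RNA (Cy5) and reference RNA (Cy3) of 82 arrays were read with Agilent Feature Extraction (11.0.1.1 per the labels), with no dye swap. The authors deposited scanner files with a median signal intensity per spot and the software's log10 ratio, and a table of normalized log2 ratios whose normalization steps are not given in the sources used here. Over probes, each of the 9 deposited columns correlated with its own array at 0.9 to 0.967, but for 4 of 9 only was that the best match, and column medians were 0.014 to 0.0312. Median intensities were background-corrected (normexp, offset 50), loess-normalized within each array without outlier spots and averaged per probe with limma 3.58.1 in R 4.3.3. A probe was tested if, in any group, 50% or more of the arrays had it well above background in Cy5 (30294 of 41174). A group-means model over all 82 arrays gave each contrast, with Benjamini-Hochberg adjustment over all probes. Each gene was represented by its brightest tested probe, named by accession through a RefSeq table (GRCm38.p6). The number of arrays limits the precision.

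Genes named were the 10 higher and 10 lower with the smallest p, 6 and 6 in the deposited values, p53 targets, and called members or extremes of 33 lists (594 of 646 listed genes tested). The members and lists were chosen with earlier results of these data known. Alternatives were the scanner, scan day, slide or mouse as a block, each scanner alone, fewer arrays in the fit, other normalizations and filters, the deposited values and leaving out each array. The fit was tested on simulated data that held no scanner, slide or mouse effect, so the test does not bear on these effects.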

Additional observations from a re-analysis of the deposited data

Results flagged for a closer look

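In a group of 4 or 5 arrays, an array was singled out when its gap to the nearest other array, as a share of the whole range of the group, was above Dixon's 95% limit, which chance alone passes in about 1 of 20 groups. Of 66 group means of lists 4 passed, 3 of them through sham M002, and of 100 gene groups 8 passed, 3 through M002.

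Among the list means, M002 stood apart in the growing hair follicle list (gap share 0.905, mean 5.33), the fibroblast and matrix list (0.958, mean -0.18) and the GP6 list (0.924, mean 0.918). M013 had the highest p53 list mean of the 3 Gy arrays (gap share 0.732, mean 0.554). Eda2r stood apart in the same array (0.723, level 1.01).

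Among sham arrays, M002 stood apart in Neat1 (gap share 0.87, level 0.70), in Ephx1, a p53 target and epoxide hydrolase (0.848, level -0.84), and in Polk, a p53 target and DNA polymerase (0.947, level -1.04). Other sham arrays stood apart in Gimap4 (M004, 0.97, level -0.24), Adgra1 (M001, 0.874, level 0.17) and 2310033P09Rik (M005, 0.915, level 0.08). Fem1b stood apart in 3 Gy M012 (0.794, level -0.75). The causes were not tested.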

How the results depend on the processing

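The scanner files gave 0 higher and 0 lower probes by limma in all but the following settings. Scanner 1 alone gave 50 and 39 and scanner 2 alone 90 and 376, leaving out single arrays 0 to 51 higher and 0 to 35 lower (51 and 35 without M011, 1 and 0 without M002, 0 and 2 without M005), and the Cy5 channel alone 0 and 1. The deposited values gave 58 and 11, 54 in all with the scanner as a block, 11 and 1 without M002, and 94 and 31 on scanner 1 alone, and 5 against 6 Gy. The deposited values with a block, without M002 or on scanner 1 alone, the scanner block without M002 (0 and 0) and 1 and 6 Gy against sham without M002 were chosen after seeing the data. Among the 20 genes with the smallest p and the 3 p53 targets at an unadjusted p under 0.05 with a measured fold, the sign turned for 7 in some setting. On scanner 1 alone, the deposited values gave Ppm1f at -0.021, Adgra1 at -0.079, Cd53 at -0.044, Calu at -0.134 and 2310033P09Rik at 0.005, and in the deposited values without M002 Ppm1f was -0.08. Calu was also -0.025 in the deposited values, -0.041 there with the scanner block and -0.146 there without M002. Ccng1 was -0.081, -0.132 and -0.329 in these 3 settings. Trp53inp1 was -0.191 in the scanner files of scanner 2 alone. The cause was not tested. No paired analysis was possible because the sham and 3 Gy groups share no mouse number. Probes near background limit the genes with only a bound.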
